A study of Mus musculus with 14 samples.

Results

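The difference between 2 mouse strains in how the miRNAs of their dorsal root ganglia (DRG, which hold the cell bodies of sensory neurons) changed after nerve injury was measured in 14 small RNA libraries, all 14 of the series. The contrast takes the injured minus naive change in CAST/Ei and subtracts the injured minus naive change in C57BL/6. It is called the interaction, and it needs all 4 groups. They were 5 libraries of naive C57BL/6, 3 of injured C57BL/6, 3 of naive CAST/Ei and 3 of injured CAST/Ei ganglia, grouped by their titles, and the submitters call them biological replicates. The injury was a crush of the left sciatic nerve for 30 s in male mice of 8 to 10 weeks. Neither age nor sex is given in the labels of the naive mice. The sources used here do not give the interval between crush and dissection or the ganglia taken. No transgene or deletion is recorded for either strain, and whether ganglia of several mice were pooled is not given.

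A miRNA is a short RNA that guides silencing proteins to messenger RNAs, which it recognises mainly through its seed, the bases 2 to 8 counted from its 5′ end. A hairpin precursor can give a mature miRNA from each of its arms, marked 5p and 3p. After a peripheral nerve is injured, sensory neurons switch to a programme of axon regrowth while their satellite glia and resident macrophages respond too, and miR-21 is among the miRNAs known for their induction. C57BL/6 is the common laboratory strain, and CAST/Ei, derived from wild castaneus mice, is known for the regrowth of its injured axons.

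Values are deposited read counts per scaled library total, called CPM, and 638 of 1123 miRNAs reached 5 CPM in at least 3 libraries and were tested on the log2(CPM + 1) scale with limma. Changes below are differences on that scale, on which 1 stands for a 2-fold change, and the scale understates changes of miRNAs at a few CPM. The libraries held 4007706 to 15642360 reads. C57BL/6 naive libraries 4 and 5 stood apart, with Spearman correlations of 0.880 to 0.934 to the other 12 libraries against 0.907 to 0.973 among those 12, so results are given with all 14 libraries and with these 2 left out. miR-218-5p, for example, is listed here as a motor neuron miRNA. Its level was 260520.0 and 81351 CPM in these 2 and 3479 to 17984 CPM in the others. miR-122-5p, listed as a hepatocyte miRNA, was named after its values were seen. Its level was 660.6 and 368.9 CPM in these 2 and 8.63 to 39.8 CPM in the others. The tissue label was checked against miRNAs of sensory neurons, all 9 of which were tested. Their summed level was 80816 to 149880 CPM, and miR-138-5p was the most abundant miRNA by its mean over the 14 libraries. miR-138-5p alone was at 59722 to 113660.0 CPM, so the sum rests largely on it. The part of other tissues in the libraries was not tested.

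Mature sequences (RefSeq, GRCm38.p6) were matched by name for 525 of the 638 miRNAs, and those on which the results turn are shown 5′ to 3′ with the seed in capitals. The first set has the miRNAs with low interaction p-values and a more positive change in CAST/Ei.
miR-5114: aCUGGAGAcggaagcugcaaga
miR-3102-5p.2-5p: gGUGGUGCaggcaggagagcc
miR-425-3p: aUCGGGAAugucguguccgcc
miR-702-3p: uGCCCACCcuuuaccccgcucc
miR-21a-3p: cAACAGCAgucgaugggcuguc
The next set has those with low p-values and a more negative change in CAST/Ei.
miR-379-5p: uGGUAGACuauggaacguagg
miR-344e-3p: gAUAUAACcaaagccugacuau
miR-216b-5p: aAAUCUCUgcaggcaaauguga
miR-216a-5p: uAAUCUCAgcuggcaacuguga
miR-376b-5p: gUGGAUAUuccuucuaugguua
Those of the following set were higher after injury in both strains.
miR-21a-5p: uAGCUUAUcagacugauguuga
miR-431-5p: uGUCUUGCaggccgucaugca
miR-6540-3p: uCUGAAGCuugcuuaccucca
miR-7689-3p: uUAGAGCCagacugccuggguuu
miR-344d-3p: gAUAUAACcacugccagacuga
The last set separated naive from injured libraries in both strains, in opposite directions.
miR-338-3p: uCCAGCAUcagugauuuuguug
miR-7a-1-3p: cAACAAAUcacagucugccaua
miR-181a-2-3p: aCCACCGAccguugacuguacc
miR-344d-3p, which has 3 copies in the table, and miR-344e-3p share a seed, while both arms of miR-21a, and miR-216a-5p and miR-216b-5p, have different seeds. miR-709 and miR-6540-5p are named only.

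After the crush both arms of miR-6540, miR-7689-3p, miR-21a-5p and miR-431-5p rose in both strains, with interactions of −0.19 to 0.40. No miRNA passed the test for a difference between the strains in its response. The lowest p-values belonged to miR-5114, which rose in CAST/Ei and had a change of −0.13 in C57BL/6, and to miR-709, miR-1195, miR-3102-5p.2-5p and miR-379-5p, whose levels lay farther apart between the strains before the injury than after it. Of 638 miRNAs 0 passed an adjusted p of 0.05 (percent called 0, limma with Benjamini-Hochberg adjustment, lowest adjusted p 0.529). At an unadjusted p under 0.05 stood 52 (8.15%), of which 19 (2.98%) had a positive interaction, a more positive change in CAST/Ei, and 33 (5.17%) a negative one. Without C57BL/6 naive libraries 4 and 5 the count was again 0 (lowest adjusted p 0.376), with 58 (9.09%) at unadjusted p under 0.05, 15 (2.35%) positive and 43 (6.74%) negative. edgeR on recovered reads called 0 (62 at unadjusted p under 0.05). DESeq2 on the same reads called 8 (1.25%), all with positive interactions: miR-425-3p, miR-702-3p, miR-709, miR-1188-5p, miR-3102-5p.2-5p, miR-5114, miR-6240 and miR-6538. With naive libraries 4 and 5 left out it called 9, adding miR-379-5p, the only negative one, and miR-1957b, and losing miR-6538.

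The split by direction depended on how libraries were scaled. With plain CPM 34 positive and 9 negative interactions had an unadjusted p under 0.05, without the 3 most abundant miRNAs in the total 38 and 7, with libraries centred on their median 27 and 18, by edgeR 37 and 25 and by DESeq2 58 and 10. The median interaction of all 638 miRNAs was −0.20, and −0.08, −0.04 and −0.16 under those 3 scalings of the limma values. The median change was 0.12 in C57BL/6 and −0.09 in CAST/Ei, and 0.26 and 0.15 with plain CPM. A single miRNA is therefore best read against the median of all.

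The intervals say how large a difference could have stayed unseen. The median standard error (SE) of the interaction was 0.506 and the median half-width of its 95% interval 1.08, or 0.402 and 0.862 without naive libraries 4 and 5. A difference of 2-fold in response, 1 on this scale, was therefore within the interval's half-width for the typical miRNA over 14 libraries.

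**Figure D1:**
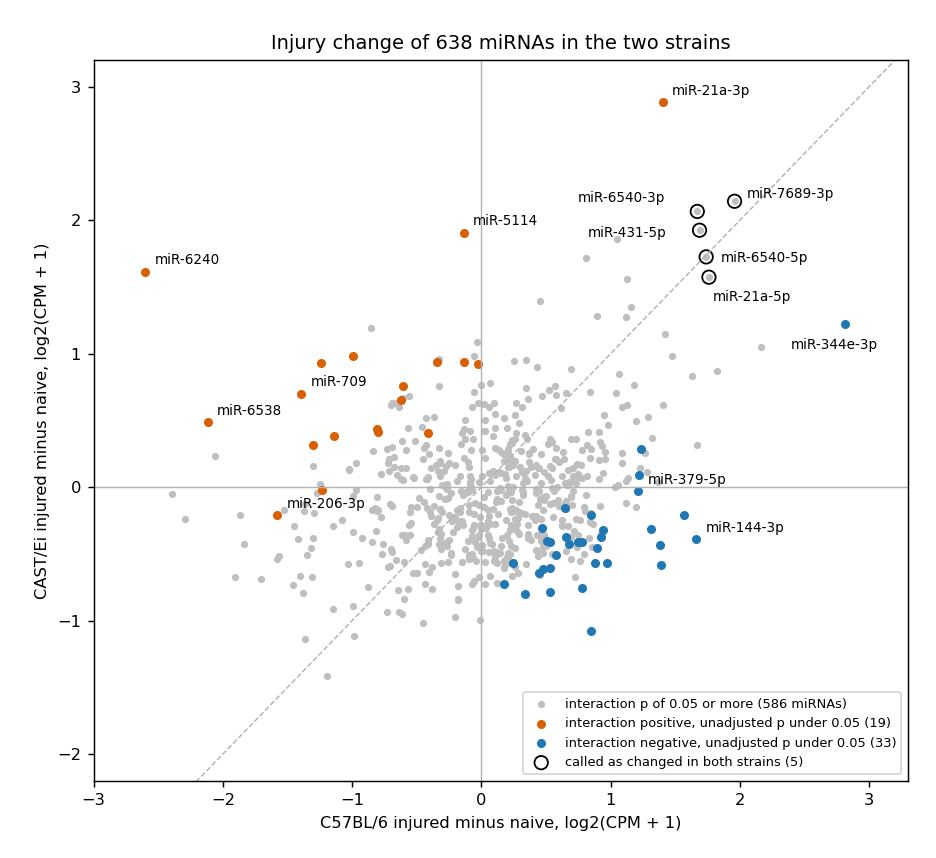
Each of the 638 points is a miRNA, with its injured minus naive change in C57BL/6 on the horizontal and in CAST/Ei on the vertical axis, both as log2(CPM + 1) differences of group means; the dashed line marks equal change. The 5 circled miRNAs changed alike in both strains, the 19 orange points lie above the line and the 33 blue points below it, and none of these 52 passed an adjusted p of 0.05 by limma.

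Among the miRNAs with a more positive change in CAST/Ei, miR-5114 had the lowest p-value. Its mature sequence lies at chr19:44303171-44303192 in an exon of Scd2, which encodes a fatty acid desaturase of lipid synthesis. In C57BL/6 the miR-5114 level was 3.56, 2.27, 4.81, 6.89 and 2.63 CPM in naive libraries 1 to 5 and 2.69, 4.72 and 2.91 CPM in the injured libraries. In CAST/Ei it was 1.38, 1.11 and 3.61 CPM in the naive and 11.7, 8.35 and 9.30 CPM in the injured libraries. All 3 injured CAST/Ei libraries lay above the other 11, and the C57BL/6 groups overlapped. The change was −0.13 ± 0.35 (SE) in C57BL/6 and 1.91 ± 0.39 in CAST/Ei, an interaction of 2.04 (95% interval 0.92 to 3.16, limma adjusted p = 0.529), or 1.93 (95% interval 0.85 to 3.01) without naive libraries 4 and 5. It stayed at unadjusted p under 0.05 in 24 of 24 other limma settings, which reuse the same libraries. DESeq2 called it (adjusted p = 0.0303) and edgeR did not (0.354). Filters at 20 CPM and at 5 CPM in at least 3 libraries of each strain left miR-5114 out, so they did not test it. It passed the main filter through the injured CAST/Ei libraries, where it was high, and otherwise only C57BL/6 naive library 4 reached 5 CPM.

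For a group of scarce miRNAs the level after injury was lower in C57BL/6 and higher in CAST/Ei. miR-425-3p comes from the hairpin of Mir425, with the mature arm at chr9:108568830-108568850 in an exon of a long non-coding RNA. In C57BL/6 the miR-425-3p level was 22.2, 29.2, 23.8, 28.3 and 23.5 CPM in naive libraries 1 to 5 and 14.5, 17.4 and 16.3 CPM in the injured libraries. In CAST/Ei it was 12.4, 10.01 and 6.53 CPM in the naive and 20.5, 10.4 and 16.6 CPM in the injured libraries. The C57BL/6 groups did not overlap and the CAST/Ei groups did. The changes were −0.63 ± 0.28 and 0.65 ± 0.31 (SE), with an interaction of 1.28 (95% interval 0.40 to 2.16, limma adjusted p = 0.529) and 1.26 (95% interval 0.39 to 2.13) without naive libraries 4 and 5. Its unadjusted p was the lowest of those miRNAs whose changes had opposite signs when judged by the weaker of both changes (0.0515, adjusted p = 1 over 638).

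miR-3102-5p.2-5p (chr7:100882367-100882387, in an exon of Arhgef17) and miR-702-3p (chr5:136991520-136991541, in an intron of Plod3, which encodes a collagen-modifying enzyme) had the same pattern of signs. The miR-3102-5p.2-5p level was 46.4, 33.9, 30.4, 43.6 and 34.4 CPM in C57BL/6 naive libraries 1 to 5, 17.9, 23.2 and 22.3 after injury, 17.2, 16.01 and 13.8 in naive CAST/Ei and 26.4, 16.2 and 21.96 in injured CAST/Ei ganglia. All 5 naive C57BL/6 libraries lay above the other 9. The interaction was 1.21 (95% interval 0.41 to 2.02, limma adjusted p = 0.529). The miR-702-3p level was 6.58, 12.1, 5.57, 32.7 and 5.27 CPM in C57BL/6 naive libraries 1 to 5, 6.17, 3.90 and 3.37 after injury, 3.04, 3.34 and 3.27 in naive CAST/Ei and 8.40, 6.59 and 7.07 in injured CAST/Ei ganglia. Here all 3 injured CAST/Ei libraries lay above the naive ones, while the C57BL/6 groups overlapped and naive library 4 stood far above the rest. Its interaction was 1.97 (95% interval 0.53 to 3.42, limma adjusted p = 0.529), and 1.68 (95% interval 0.73 to 2.62, limma adjusted p = 0.376) without naive libraries 4 and 5.

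The miR-709 level was 24.8, 23.1, 51.4, 30.1 and 15.05 CPM in C57BL/6 naive libraries 1 to 5, 8.56, 8.11 and 12.5 after injury, 4.78, 5.78 and 14.8 in naive CAST/Ei and 8.22, 22.6 and 11.2 in injured CAST/Ei ganglia. The 5 naive C57BL/6 libraries were the highest of that strain, and the CAST/Ei groups overlapped. Changes of −1.39 and 0.70 gave an interaction of 2.09 (95% interval 0.73 to 3.45, limma adjusted p = 0.529), and 2.30 (95% interval 0.97 to 3.63) without naive libraries 4 and 5. miR-1195 had changes of −1.24 and 0.93 and an interaction of 2.17 (95% interval 0.75 to 3.59, limma adjusted p = 0.529), with C57BL/6 naive library 3 the highest of all at 212 CPM. The miR-1195 sequence lies opposite an intron of a pseudogene, and whether its reads come from a miRNA hairpin was not tested. For miR-709, miR-1195, miR-3102-5p.2-5p and miR-425-3p the unadjusted p stayed under 0.05 in 26 of 26 other limma settings each, and for miR-702-3p in 25 of 25. DESeq2 called miR-709, miR-702-3p and miR-425-3p (each adjusted p = 0.0416) and miR-3102-5p.2-5p (0.0330), not miR-1195 (0.0734), and edgeR none of the 5 (0.487 to 0.496).

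The 2 largest interactions of this sign, of miR-6240 and miR-6538, moved with the libraries included. The miR-6240 level was 13.6, 29.2, 46.6, 94.9 and 136 CPM in C57BL/6 naive libraries 1 to 5, 8.56, 7.80 and 5.19 after injury, 5.36, 8.01 and 6.88 in naive CAST/Ei and 6.21, 251 and 6.13 in injured CAST/Ei ganglia. Its interaction of 4.21 (95% interval 1.17 to 7.26, limma adjusted p = 0.529) was 2.50 without CAST/Ei injured library 2, the only one of that strain above 9 CPM, and ranged up to 5.07 over the limma settings. In C57BL/6 all 5 naive libraries lay above the injured ones. The miR-6538 level was 4.38, 9.32, 1.52, 26.4 and 13.9 CPM in C57BL/6 naive libraries 1 to 5, 1.39, 0.308 and 1.82 after injury, 1.38, 1.22 and 1.38 in naive CAST/Ei and 1.73, 2.57 and 2.56 in injured CAST/Ei ganglia. Here C57BL/6 naive libraries 4 and 5 were the highest, and the interaction was 2.60 (95% interval 0.79 to 4.42, limma adjusted p = 0.529) with them and 1.82 (95% interval 0.43 to 3.203, limma adjusted p = 0.437) without. It reached 5 CPM only in C57BL/6 naive libraries 2, 4 and 5, the group where it was high. The filter was not redone without libraries 4 and 5, so the smaller fit kept a miRNA that would not have passed it. The mature sequences of miR-6240 and miR-6538 have 26 and 19 bases. Whether their reads come from the hairpins of these miRNAs was not tested.

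The scarce arm of miR-21a had the largest CAST/Ei change of the 638 miRNAs. miR-21a-3p lies at chr11:86584082-86584103, in an exon of Vmp1, opposite miR-21a-5p in the hairpin. The miR-21a-3p level was 1.23, 3.81, 2.53, 1.03 and 2.26 CPM in C57BL/6 naive libraries 1 to 5, 4.28, 7.19 and 10.8 after injury, 0.869, 1.001 and 0 in naive CAST/Ei and 9.50, 14.8 and 8.15 in injured CAST/Ei ganglia. Naive and injured libraries did not overlap in either strain, and the naive CAST/Ei libraries were the lowest of the 14. miR-21a-3p reached 5 CPM only in injured libraries. It passed the filter through the groups where it was high, so its injury p-values and rank are not independent of the filter. The change was 1.41 ± 0.38 (SE, limma adjusted p = 0.0534) in C57BL/6 and 2.89 ± 0.42 (adjusted p = 0.00269) in CAST/Ei, an interaction of 1.48 (95% interval 0.28 to 2.68, limma adjusted p = 0.529). The main arm, miR-21a-5p, had an interaction of −0.19 (95% interval −1.10 to 0.73). At these levels the value is sensitive to the pseudocount, and the interaction of miR-21a-3p ran from 0.70 to 1.86 over the limma settings, in 21 of 24 of which its unadjusted p was under 0.05.

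miR-206-3p, a skeletal muscle miRNA, fell after injury in C57BL/6 (limma adjusted p = 0.0215) and had a change of −0.21 in CAST/Ei. The miR-206-3p level was 84.3, 46.1, 88.4, 83.5 and 194 CPM in C57BL/6 naive libraries 1 to 5, 33.8, 24.5 and 29.9 after injury, 38.6, 63.4 and 42.5 in naive CAST/Ei and 41.1, 41.3 and 39.3 in injured CAST/Ei ganglia. All 3 injured C57BL/6 libraries were the lowest, and the CAST/Ei groups overlapped. The interaction was 1.37 (95% interval 0.23 to 2.51, limma adjusted p = 0.529), and 1.03 (95% interval 0.19 to 1.86) without naive libraries 4 and 5. In bulk ganglia, fewer cells of a type and less RNA per cell cannot be told apart. The 10 tested skeletal muscle miRNAs as a list had 5 positive and 5 negative interactions and a median of 0.04. All 15 listed, tested or not, summed to 6166 to 18272 CPM in naive and 10025 to 10962 in injured C57BL/6 ganglia. In CAST/Ei the sum was 10157 to 12859 CPM in naive and 7183 to 8304 in injured ganglia. No tested member was at 0 in any library, and the part of muscle tissue in the result was not tested.

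**Figure D2:**
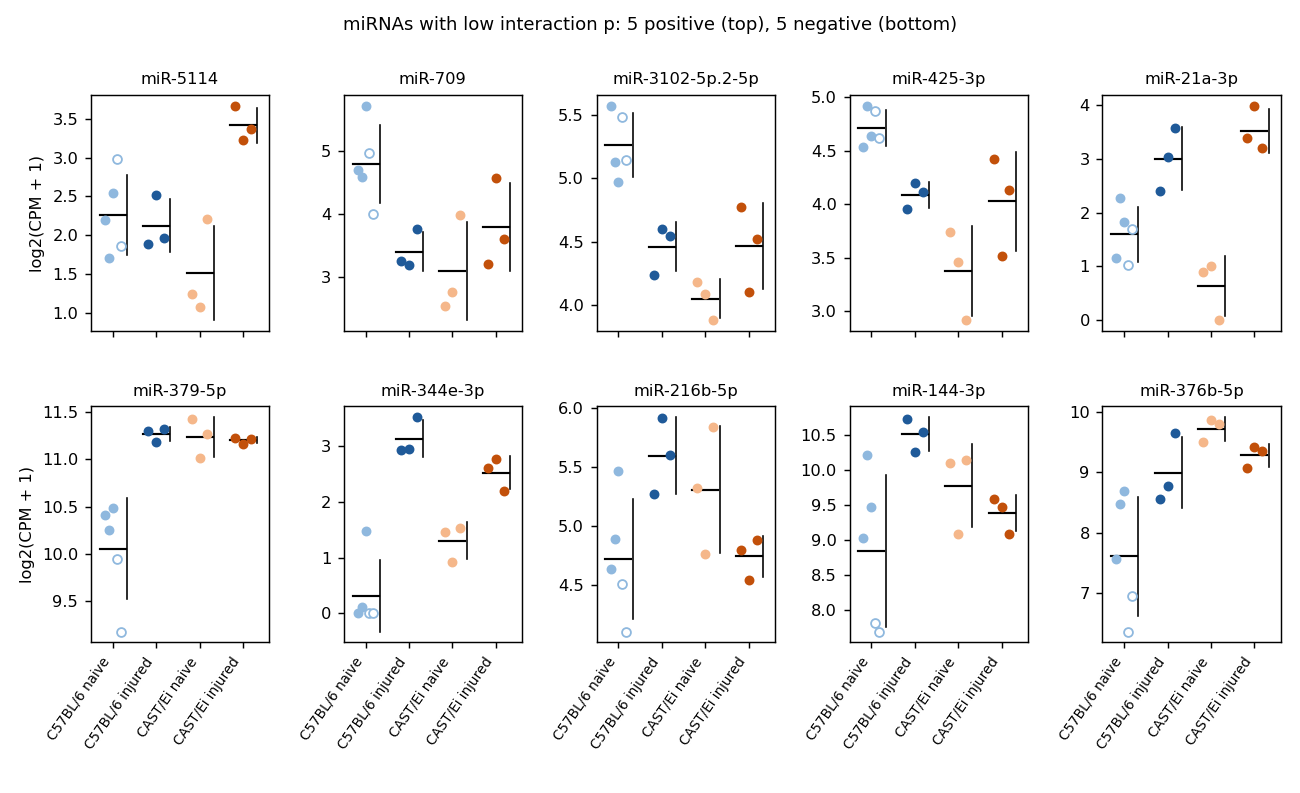
Log2(CPM + 1) in each library (points) of 10 miRNAs with low interaction p-values, with the group mean (horizontal bar) and standard deviation (vertical line, n = 5, 3, 3 and 3); open circles are C57BL/6 naive libraries 4 and 5, and each panel has its own axis range. In the top row CAST/Ei moved more positively than C57BL/6, as in miR-5114 (interaction 2.04), and in the bottom row more negatively, as in miR-379-5p (−1.24).

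On the negative side, miR-379-5p had the lowest p-value. It is the first miRNA of a large imprinted cluster on chromosome 12, expressed from the maternal chromosome, and lies at chr12:109709065-109709085. In C57BL/6 the miR-379-5p level was 1359.7, 1222, 1437, 989 and 578 CPM in naive libraries 1 to 5 and 2527, 2325 and 2564 CPM in the injured libraries. In CAST/Ei it was 2754, 2062 and 2471 CPM in the naive and 2402, 2298 and 2387 CPM in the injured libraries. The 5 naive C57BL/6 libraries were the lowest of the 14, the injured ones reached the level that both CAST/Ei groups held, and the CAST/Ei groups overlapped. It rose in C57BL/6 by 1.21 ± 0.27 (SE, limma adjusted p = 0.0194), had a change of −0.03 ± 0.30 in CAST/Ei, and an interaction of −1.24 (95% interval −2.10 to −0.39, limma adjusted p = 0.529). Without naive libraries 4 and 5 the interaction was −0.92 (95% interval −1.41 to −0.42, limma adjusted p = 0.376), the lowest p of that fit. Its unadjusted p stayed under 0.05 in 26 of 26 limma settings. miR-376b-5p, further along the same cluster at chr12:109723471-109723492, had changes of 1.38 and −0.44. The miR-376b-5p level was 189, 355, 414, 81.7 and 123 CPM in C57BL/6 naive libraries 1 to 5, 375, 438 and 807 after injury, 721, 927 and 888 in naive CAST/Ei and 537, 686 and 651 in injured CAST/Ei ganglia. The C57BL/6 groups overlapped and the CAST/Ei groups did not, all naive libraries lying above the injured ones. The interaction was −1.82 (95% interval −3.24 to −0.40, limma adjusted p = 0.529), or −1.19 (95% interval −2.13 to −0.24) in 12 libraries.

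miR-136-3p, in the same domain opposite an exon of Rtl1, a gene expressed from the other parental chromosome, gave an interaction of −1.35 (95% interval −2.43 to −0.28, limma adjusted p = 0.529), and −0.87 (95% interval −1.53 to −0.20) without naive libraries 4 and 5. The miR-136-3p level was 230.3, 306, 354, 113 and 138 CPM in C57BL/6 naive libraries 1 to 5, 327, 386 and 464 after injury, 476, 479 and 674 in naive CAST/Ei and 361, 410.4 and 399.6 in injured CAST/Ei ganglia. All 3 naive CAST/Ei libraries lay above the 11 others, and the C57BL/6 groups overlapped. miR-3071-5p lies across it on the other strand (chr12:109595363-109595384 against chr12:109595366-109595387), with an interaction of −1.09 (95% interval −1.997 to −0.18, limma adjusted p = 0.529). The use of strand in counting is not stated in the sources, so reads of the pair may not be separate. Under plain CPM and without the 3 most abundant miRNAs in the total both stayed negative with unadjusted p-values of 0.0543 to 0.0688.

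miR-344e-3p rose in C57BL/6 from near absence. It belongs to a family of repeated copies on chromosome 7 (chr7:61735539-61735560), whose members share much sequence, so reads could be split between them. The miR-344e-3p level was 0, 0.0810, 1.77, 0 and 0 CPM in C57BL/6 naive libraries 1 to 5, 6.67, 6.68 and 10.5 after injury, 1.74, 0.890 and 1.89 in naive CAST/Ei and 5.11, 5.78 and 3.57 in injured CAST/Ei ganglia. Naive and injured libraries did not overlap in either strain. The change was 2.82 ± 0.36 (SE, limma adjusted p = 0.00066) in C57BL/6 and 1.22 ± 0.40 (adjusted p = 0.293) in CAST/Ei, with an interaction of −1.60 (95% interval −2.74 to −0.45, limma adjusted p = 0.529). Both strains thus had changes of the same sign but unequal size. miR-344e-3p reached 5 CPM only in injured libraries. It passed the filter through the groups where it was high, so its injury p-values are not independent of the filter. miR-344d-3p, with the same seed, had changes of 1.42 and 1.15 and an interaction of −0.27 (95% interval −1.24 to 0.69), and all 6 tested members of the family had the same sign in both strains.

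miR-216a-5p and miR-216b-5p lie in 1 cluster on chromosome 11 (chr11:28757018-28757039 and chr11:28746204-28746225) and are best known from pancreas. The miR-216a-5p level was 6.03, 13.04, 30.7, 6.78 and 9.59 CPM in C57BL/6 naive libraries 1 to 5, 14.8, 31.7 and 60.2 after injury, 30.5, 35.6 and 36.1 in naive CAST/Ei and 17.5, 26.02 and 24.3 in injured CAST/Ei ganglia. The miR-216b-5p level was 23.8, 28.6, 43.3, 21.7 and 16.2 CPM in C57BL/6 naive libraries 1 to 5, 37.5, 59.6 and 47.6 after injury, 39.1, 26.1 and 56.2 in naive CAST/Ei and 26.8, 22.3 and 28.4 in injured CAST/Ei ganglia. For miR-216a-5p the CAST/Ei groups did not overlap, all 3 naive libraries being higher, and the C57BL/6 groups did. For miR-216b-5p both strains overlapped. The interactions were −1.97 (95% interval −3.48 to −0.47, limma adjusted p = 0.529) and −1.45 (95% interval −2.49 to −0.40, limma adjusted p = 0.529). Their neighbour miR-217-5p, named after its values were seen, had changes of −0.42 and −0.43, with an interaction of −0.01 (95% interval −0.95 to 0.93).

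miR-144-3p, a red blood cell miRNA, had the most negative interaction. The miR-144-3p level was 521, 1187, 713, 225 and 207 CPM in C57BL/6 naive libraries 1 to 5, 1703, 1221 and 1495 after injury, 1093, 545 and 1129.5 in naive CAST/Ei and 771, 710.5 and 546 in injured CAST/Ei ganglia. Injured C57BL/6 libraries were the highest of the 14, naive libraries 4 and 5 the lowest, and the CAST/Ei groups overlapped. The interaction was −2.05 (95% interval −3.58 to −0.53, limma adjusted p = 0.529), or −1.33 (95% interval −2.30 to −0.36) without those 2 libraries. Of the 5 erythrocyte miRNAs 3 had negative and 2 positive interactions, and that of miR-451a, the most abundant, was −0.43 (95% interval −1.62 to 0.75). Their summed level was 7369 to 26474 CPM in naive C57BL/6, 11216 to 14588 in injured C57BL/6, 9682 to 13468 in naive CAST/Ei and 7680 to 9173 in injured CAST/Ei ganglia, none was at 0 in any library, and the part of blood in the result was not tested.

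miR-26b-5p, from an intron of the phosphatase gene Ctdsp1, was the most abundant of the 10 miRNAs with the lowest p-values on this side. The miR-26b-5p level was 3182, 2882, 5571, 2808 and 2351 CPM in C57BL/6 naive libraries 1 to 5, 4297, 3958 and 5214 after injury, 4256, 6163 and 7361 in naive CAST/Ei and 3385, 4142 and 3871 in injured CAST/Ei ganglia. The C57BL/6 groups overlapped, and all 3 naive CAST/Ei libraries lay above the injured ones. Changes of 0.48 and −0.61 gave an interaction of −1.09 (95% interval −1.96 to −0.21, limma adjusted p = 0.529), with an unadjusted p under 0.05 in 23 of 26 limma settings. miR-107-5p, from an intron of the pantothenate kinase gene Pank1, had an interaction of −1.53 (95% interval −2.79 to −0.28, limma adjusted p = 0.529) at 1.72 to 13.9 CPM, and miR-6390 one of −1.93 (95% interval −3.41 to −0.44, limma adjusted p = 0.529) at 0.876 to 9.66 CPM.

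The interaction can also be read as the strain difference in injured ganglia minus that in naive ganglia. The strains lay farther apart in naive than in injured ganglia in 45 of the 52 miRNAs at unadjusted p under 0.05 (86.5%), against 419 of all 638 (65.7%). In the 52 the median size of the strain difference was 1.01 in naive and 0.28 in injured ganglia, and over all 638 it was 0.50 and 0.27. Without naive libraries 4 and 5 the counts were 50 of 58 (86.2%) and 388 of 638 (60.8%). Under plain CPM they were 33 of 43 (76.7%) and 418 of 638, and without the 3 most abundant miRNAs in the total 34 of 45 (75.6%) and 418 of 638. A low interaction p itself selects miRNAs whose 2 gaps differ, so these shares are a description with no test. Replicates also varied more in the naive groups, by a chi-square of reads between 2 libraries per degree of freedom. In CAST/Ei it was 363.5 to 686.6 in naive and 51.59 to 115.5 in injured ganglia. In C57BL/6 it was 338.6 to 5239 in naive and 147 to 304.8 in injured ganglia. Among naive C57BL/6 libraries 1 to 3 it was 338.6 to 474.9. The value also grows with the number of reads, which differed between libraries. Noisier means give larger gaps, and the part of this in the naive gaps was not tested. miR-379-5p and miR-376b-5p show the pattern on the negative side, and miR-3102-5p.2-5p and miR-425-3p on the positive side.

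Changes of the same sign in both strains were called in 5 miRNAs (0.784% of 638), and each was an increase, in both arms of miR-6540, miR-431-5p, miR-21a-5p and miR-7689-3p. The test takes the weaker of both strains' injury p-values, adjusted over all 638. Without naive libraries 4 and 5 the count was 9 (1.41%), these 5 and miR-344d-3p, miR-511-3p and miR-1197-3p, which rose, and miR-551b-3p, which fell. With single libraries left out in turn the count was 1 to 5, and it was 1, miR-6540-5p, without C57BL/6 injured library 1. The strains share no library but do share 1 estimate of the spread.

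The hairpin of miR-6540 lies within an intron of Gap43, the gene of a growth cone protein, and is read in its direction. The 5p arm had the interaction closest to 0 of the 5. In C57BL/6 the miR-6540-5p level was 40.96, 41.8, 30.4, 37.3 and 23.3 CPM in naive libraries 1 to 5 and 98.8, 128 and 123 CPM in the injured libraries. In CAST/Ei it was 38.7, 38.7 and 44.5 CPM in the naive and 139, 124 and 147 CPM in the injured libraries. The 6 injured libraries lay above all 8 naive ones. Its interaction was −0.01 (95% interval −0.79 to 0.76), wholly within 2-fold, and 0.12 (95% interval −0.50 to 0.74) without naive libraries 4 and 5. The joint increase was called in 31 of 31 other settings, the count tests included (highest adjusted p 0.0462). The other arm, miR-6540-3p at chr16:42303386-42303406, was called in 13 of 31. The miR-6540-3p level was 5.62, 4.46, 3.04, 6.43 and 14.3 CPM in C57BL/6 naive libraries 1 to 5, 17.9, 23.3 and 22.9 after injury, 5.14, 4.56 and 6.02 in naive CAST/Ei and 31.6, 19.4 and 25.4 in injured CAST/Ei ganglia. All injured libraries again exceeded all naive ones, but naive C57BL/6 library 5 came within 4 CPM of the lowest injured one, and the interaction was 0.40 (95% interval −0.76 to 1.55).

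miR-431-5p lies opposite an exon of Rtl1 at chr12:109590459-109590479. The miR-431-5p level was 77.95, 103, 71.7, 106 and 84.5 CPM in C57BL/6 naive libraries 1 to 5, 311, 259.9 and 284 after injury, 123, 107 and 52.8 in naive CAST/Ei and 335, 339 and 345 in injured CAST/Ei ganglia. The 6 injured libraries lay far above the 8 naive ones, and its interaction was 0.24 (95% interval −0.63 to 1.10), or 0.16 (95% interval −0.67 to 0.995) without naive libraries 4 and 5. Its joint increase was called in 30 of 31 other settings (highest adjusted p 0.0596). Within the 18 tested miRNAs of the same Rtl1-antisense stretch 9 had the same sign in both strains (13 without naive libraries 4 and 5, 11 under plain CPM), against 53.9% of all miRNAs.

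miR-21a-5p was the most abundant of the 5. The miR-21a-5p level was 5753, 4997, 7610.3, 2832 and 7419.5 CPM in C57BL/6 naive libraries 1 to 5, 19696, 16765 and 18569 after injury, 7542, 4989 and 6439 in naive CAST/Ei and 18524, 17664 and 19515 in injured CAST/Ei ganglia. All 6 injured libraries lay far above all 8 naive ones. Its interaction was −0.19 (95% interval −1.10 to 0.73) with 14 libraries and −0.03 (95% interval −0.62 to 0.56) with 12, the latter wholly within 2-fold. The joint call held in 20 of 31 other settings (highest adjusted p 0.187). miR-7689-3p, at chr5:36301606-36301628 opposite an intron of Sorcs2, a sortilin receptor gene, was scarcer. The miR-7689-3p level was 0.822, 4.94, 5.32, 3.68 and 2.63 CPM in C57BL/6 naive libraries 1 to 5, 11.2, 14.5 and 20.4 after injury, 4.63, 10.7 and 5.50 in naive CAST/Ei and 33.97, 39.996 and 24.7 in injured CAST/Ei ganglia. Naive and injured libraries did not overlap within either strain, and the interaction was 0.18 (95% interval −1.10 to 1.47), too wide to bound within 2-fold.

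Of the 4 miRNAs added in 12 libraries, miR-511-3p lies in an intron of Mrc1, a macrophage receptor gene. The miR-511-3p level was 109, 83.8, 76.3, 51.8 and 54.7 CPM in C57BL/6 naive libraries 1 to 5, 221, 196 and 191 after injury, 39.2, 35.7 and 47.5 in naive CAST/Ei and 90.4, 71.5 and 82.5 in injured CAST/Ei ganglia. CAST/Ei ganglia held less of it than C57BL/6 ganglia in both states, and naive and injured libraries did not overlap in either strain. Its interaction was −0.49 (95% interval −1.33 to 0.36) and −0.20 (95% interval −0.83 to 0.43) in the 2 fits. miR-1197-3p, of the imprinted chromosome 12 cluster, had changes of 1.12 and 1.56 and an interaction of 0.44 (95% interval −0.74 to 1.61). miR-551b-3p, named after its values were seen, was the decrease. The miR-551b-3p level was 888, 1166, 809, 478 and 799 CPM in C57BL/6 naive libraries 1 to 5, 496, 478 and 464 after injury, 999, 809 and 776 in naive CAST/Ei and 552, 392 and 412 in injured CAST/Ei ganglia. All naive CAST/Ei libraries lay above the injured ones, while C57BL/6 naive library 4 lay within the injured range. The joint decrease passed without naive libraries 4 and 5 (limma adjusted p = 0.0293) and not with them (0.618).

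miR-1188-5p, of the Rian gene in the imprinted domain, had higher levels after injury in both strains from very different starts. The miR-1188-5p level was 5.48, 8.42, 6.33, 8.50 and 11.7 CPM in C57BL/6 naive libraries 1 to 5, 12.9, 19.9 and 23.2 after injury, 0, 0 and 0 in naive CAST/Ei and 2.01, 0.964 and 1.41 in injured CAST/Ei ganglia. In naive CAST/Ei ganglia it was at 0 in all 3 libraries, which a group floor of 0.105 CPM (3 reads) limits. CAST/Ei injured ganglia, at 1.46 ± 0.524 CPM (SD, n = 3), were thus at least 13.95-fold higher, against 2.31-fold in C57BL/6. On the log2(CPM + 1) scale the interaction was 0.16 (95% interval −0.78 to 1.10), it turned to −0.48 with a pseudocount of 5, and DESeq2 called it (adjusted p = 0.0209), so this miRNA's comparison depends on the scale.

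**Figure D3:**
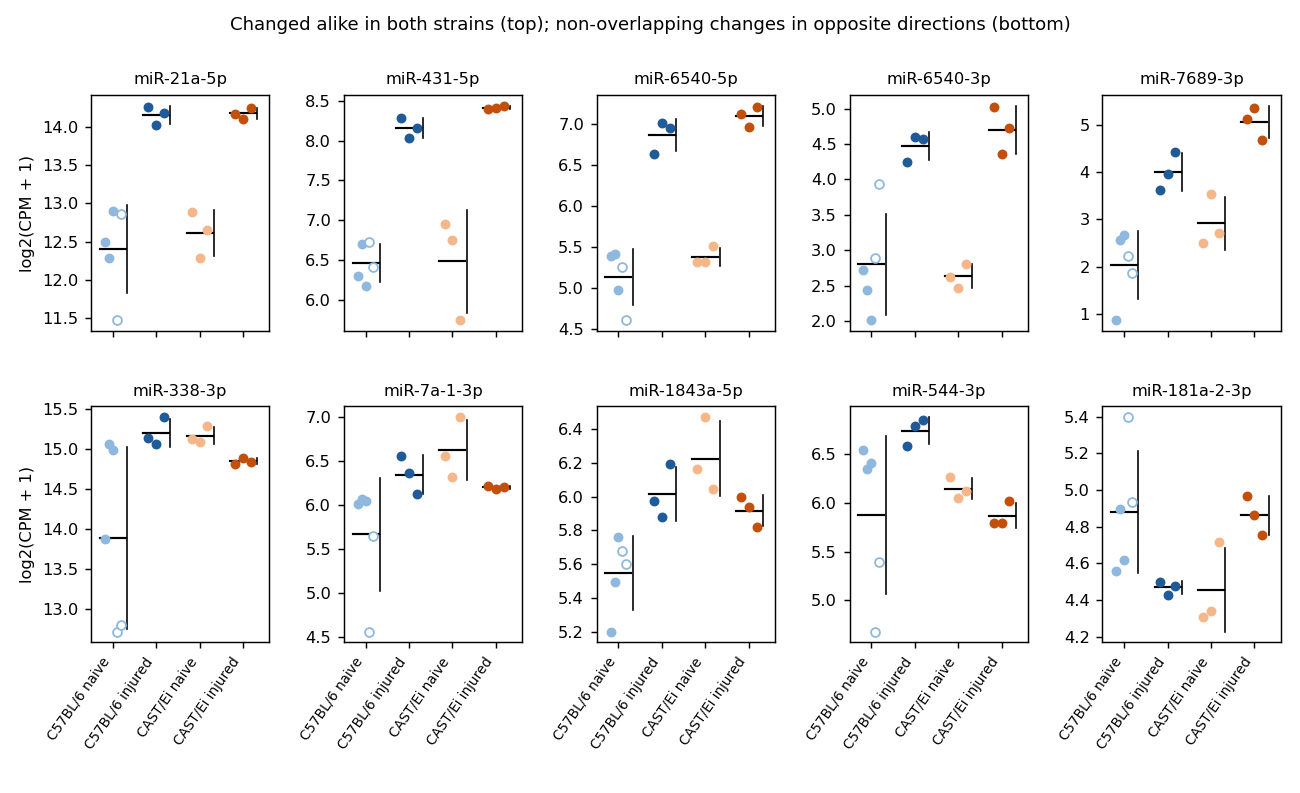
Log2(CPM + 1) in each library, drawn as in the plot of the low-p miRNAs, for the 5 miRNAs called as changed alike (top) and the 5 whose naive and injured libraries did not overlap in either strain with opposite directions (bottom). In the top row injured libraries lie above the naive ones in both strains, and in the bottom row the strains differ in direction while the changes are at most 1.31.

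Changes in opposite directions were called in 0 of 638 miRNAs (percent called 0), and 0 had an unadjusted p under 0.05 in that test. Without naive libraries 4 and 5 the count was 0, with 1 at unadjusted p under 0.05 (0.0424). Counting libraries alone, 33 miRNAs (5.17%) had naive and injured libraries that did not overlap in either strain and changes of the same direction, 23 higher and 10 lower after injury. Only 5 (0.784%) did so in opposite directions, or 51 (7.99%) and 6 (0.94%) without naive libraries 4 and 5. Within 1 strain, 95 miRNAs (14.9%) did not overlap in C57BL/6 and 170 (26.6%) in CAST/Ei, where the groups are smaller.

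The 5 are miR-338-3p, miR-7a-1-3p, miR-1843a-5p and miR-544-3p, higher after injury in C57BL/6 and lower in CAST/Ei, and miR-181a-2-3p, the reverse. miR-1843a-5p and miR-544-3p were named after their values were seen. miR-338-3p, from an intron of Aatk, is the most abundant member of the myelinating glia list used here. The miR-338-3p level was 15061, 33986, 32272, 6735 and 7116 CPM in C57BL/6 naive libraries 1 to 5, 36075, 34069 and 42996 after injury, 35523, 34794 and 39788 in naive CAST/Ei and 28769, 30280.0 and 29186 in injured CAST/Ei ganglia. Its C57BL/6 change was 1.31, but 0.56 without naive libraries 4 and 5, and its CAST/Ei change −0.32, with interactions of −1.63 (95% interval −3.09 to −0.17, limma adjusted p = 0.529) and −0.88 (95% interval −1.63 to −0.12, limma adjusted p = 0.437). The C57BL/6 groups were separated by a small gap, with naive library 2 just under the lowest injured one.

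The miR-7a-1-3p level was 63.4, 65.8, 65.1, 22.6 and 49.3 CPM in C57BL/6 naive libraries 1 to 5, 92.99, 81.1 and 68.5 after injury, 93.1, 78.7 and 127 in naive CAST/Ei and 73.1, 71.3 and 72.8 in injured CAST/Ei ganglia. This arm of a miR-7 hairpin in an intron of Hnrnpk, a gene for an RNA-binding protein, had an interaction of −1.10 (95% interval −2.15 to −0.06, limma adjusted p = 0.529). In 12 libraries its C57BL/6 change went from 0.68 to 0.30 and the interaction to −0.73 (95% interval −1.37 to −0.09). The miR-1843a-5p level was 35.8, 44.1, 53.2, 50.1 and 47.6 CPM in C57BL/6 naive libraries 1 to 5, 61.8, 57.9 and 72.02 after injury, 70.5, 87.6 and 64.99 in naive CAST/Ei and 62.9, 60.2 and 55.4 in injured CAST/Ei ganglia. Its interaction was −0.78 (95% interval −1.50 to −0.06, limma adjusted p = 0.529), and −0.84 (95% interval −1.48 to −0.19, limma adjusted p = 0.437) without naive libraries 4 and 5. The miR-544-3p level was 92.3, 80.8, 84.4, 24.6 and 41.01 CPM in C57BL/6 naive libraries 1 to 5, 94.98, 110.0 and 114 after injury, 75.8, 65.4 and 68.9 in naive CAST/Ei and 54.4, 54.6 and 63.8 in injured CAST/Ei ganglia. For this member of the imprinted chromosome 12 cluster the interaction was −1.15 (95% interval −2.31 to 0.02, limma adjusted p = 0.529), and −0.58 (95% interval −1.15 to −0.02) without naive libraries 4 and 5. The miR-181a-2-3p level was 22.6, 28.8, 23.6, 41.1 and 29.5 CPM in C57BL/6 naive libraries 1 to 5, 21.6, 20.5 and 21.3 after injury, 18.8, 19.2 and 25.3 in naive CAST/Ei and 30.3, 28.1 and 26.01 in injured CAST/Ei ganglia. Its changes of −0.41 and 0.41 gave an interaction of 0.82 (95% interval 0.02 to 1.62, limma adjusted p = 0.529). Under plain CPM the CAST/Ei changes of miR-338-3p, miR-1843a-5p and miR-544-3p shrank to −0.05, −0.05 and −0.02, and that of miR-7a-1-3p to −0.16, while they stayed negative, as did the interactions (−0.66 to −1.51).

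Over all miRNAs, 344 (53.9%) had the same sign of change in both strains and 293 opposite signs, while miR-7688-5p had a change of exactly 0 in a strain. Of those 293, 193 were positive in C57BL/6 and negative in CAST/Ei, and 100 the reverse. Where both changes were at least 0.5, 62 had the same sign (33 up, 29 down) and 25 opposite signs. Where both were at least 1, 15 had the same sign (13 up, 2 down) and only miR-6240, with the single high CAST/Ei library above, opposite signs. Across the 638 miRNAs, which are not independent and share libraries, the changes had a Pearson correlation of 0.265 and a Spearman correlation of 0.191, or 0.358 and 0.311 without naive libraries 4 and 5. The share of the same sign was 57.8% in that fit, 57.7% with plain CPM and 55.3% with median centring.

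Of the 20 miRNAs that passed for the injury in C57BL/6 (3.13%), the CAST/Ei change of 19 had that sign too, and for 4 the interaction had an unadjusted p under 0.05. Of the 7 that passed in CAST/Ei (1.1%), 6 had the same sign in C57BL/6 and 2 had an interaction at that level, miR-5114 and miR-21a-3p. Both had passed the filter through injured libraries, where they were high. Without naive libraries 4 and 5, 29 (4.55%) passed in C57BL/6 and 17 (2.66%) in CAST/Ei. With single libraries left out in turn, 6 (without C57BL/6 injured library 3) to 70 (without C57BL/6 naive library 3) passed in C57BL/6 and 3 to 10 in CAST/Ei, and by DESeq2 83 and 17. A miRNA called in 1 strain only was thus not shown to differ between them.

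For 36 miRNAs (5.64%) the interval of the interaction lay wholly between −1 and 1, so a difference in response above 2-fold was outside it. They include miR-138-5p, the most abundant neuronal miRNA. The miR-138-5p level was 73154, 94492, 87457, 104660.0 and 113660.0 CPM in C57BL/6 naive libraries 1 to 5, 61180.0, 66747 and 59722 after injury, 90102, 83337 and 93328 in naive CAST/Ei and 69789, 65011 and 68299 in injured CAST/Ei ganglia. The C57BL/6 injured libraries lay below all naive ones and the CAST/Ei injured libraries below theirs, with changes of −0.58 and −0.39 and an interaction of 0.19 (95% interval −0.42 to 0.80). Others, named after their values were seen except miR-223-3p, were miR-183-5p of the sensory cluster, 0.01 (95% interval −0.96 to 0.98), the myeloid miR-223-3p, 0.05 (95% interval −0.85 to 0.95), miR-221-3p, with changes of 0.61 and 0.59 and an interaction of −0.02 (95% interval −0.90 to 0.86), and the leukocyte miR-142-5p, with changes of 0.57 and 0.76 and 0.19 (95% interval −0.48 to 0.86). Without naive libraries 4 and 5 the count was 158 (24.8%). Some of the 36 were not among these, such as miR-145a-5p (95% interval −0.55 to 1.08) and miR-217-5p (95% interval −1.007 to 0.29). All other intervals over 14 libraries reached past 2-fold on at least 1 side.

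Leaving out C57BL/6 naive libraries 4 and 5 moved the interactions of single miRNAs as well as the counts given above. The interaction of the 638 miRNAs in the 2 fits had r = 0.792. Its sign turned in 85, and it moved by over 1 in 16. Of the miRNAs at unadjusted p under 0.05, 40 were so in both fits, all with the same sign, 12 with all libraries only and 18 without the 2 libraries only.

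The epithelial miRNAs miR-200a-3p and miR-200b-3p had the largest falls in p-value of the 638 and were named after their values were seen. The miR-200b-3p level was 10.7, 5.35, 4.31, 372 and 58.1 CPM in C57BL/6 naive libraries 1 to 5, 17.3, 5.13 and 9.83 after injury, 42.5, 43.7 and 29.9 in naive CAST/Ei and 14.2, 10.3 and 17.4 in injured CAST/Ei ganglia. Naive C57BL/6 libraries 4 and 5 were the highest of all 14, while naive libraries 1 to 3 lay below all CAST/Ei libraries but the lowest injured one. In CAST/Ei all naive libraries lay above the injured ones. The interaction was −0.22 (95% interval −3.49 to 3.04) with all libraries and −1.96 (95% interval −3.16 to −0.76, limma adjusted p = 0.376) without those 2. The miR-200a-3p level was 5.75, 11.7, 8.61, 576 and 115 CPM in C57BL/6 naive libraries 1 to 5, 24.6, 9.24 and 8.92 after injury, 53.6, 35.1 and 37.1 in naive CAST/Ei and 18.9, 14.3 and 22.1 in injured CAST/Ei ganglia. The order of the libraries was alike, and the interaction went from 0.22 (95% interval −3.23 to 3.67) to −1.69 (95% interval −2.81 to −0.57, limma adjusted p = 0.376). The 9 listed epithelial miRNAs, 7 of them tested, summed to 226 to 1593 CPM in naive C57BL/6 ganglia. In libraries 1 to 3 of that group the sum was 226 to 274 CPM. The sum was 218 to 292 CPM in injured C57BL/6, 274 to 387 in naive CAST/Ei and 274 to 341 in injured CAST/Ei ganglia. The part of epithelial tissue was not tested.

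miR-135a-5p and miR-380-3p also had lower p-values without these libraries. The miR-135a-5p level was 62.1, 78.7, 66.4, 77.4 and 112 CPM in C57BL/6 naive libraries 1 to 5, 217, 142 and 203 after injury, 109.7, 150.5 and 118 in naive CAST/Ei and 169.6, 122 and 171 in injured CAST/Ei ganglia. miR-135a-5p rose in C57BL/6 (limma adjusted p = 0.0172), where no naive library reached the injured ones, with an interaction of −0.95 (95% interval −1.78 to −0.13, limma adjusted p = 0.529) and −1.13 (95% interval −1.82 to −0.43, limma adjusted p = 0.376) without the 2 libraries. The miR-380-3p level was 54.7, 109, 163, 174 and 331 CPM in C57BL/6 naive libraries 1 to 5, 295, 258 and 363 after injury, 199.6, 226 and 215 in naive CAST/Ei and 231, 228 and 267 in injured CAST/Ei ganglia. For miR-380-3p, of the imprinted chromosome 12 cluster and named after its values were seen, libraries 4 and 5 were the highest of naive C57BL/6, and the interaction was −0.91 (95% interval −2.21 to 0.39, limma adjusted p = 0.547) with and −1.42 (95% interval −2.34 to −0.49, limma adjusted p = 0.376) without them.

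**Figure D4:**
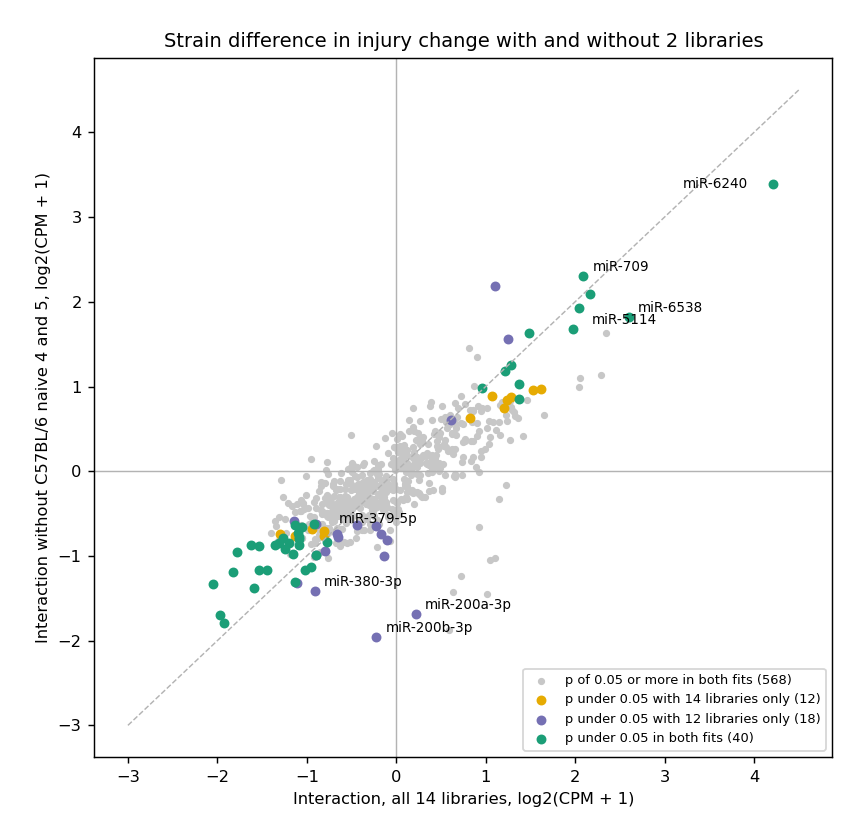
Interaction of each of the 638 miRNAs on the log2(CPM + 1) scale with all 14 libraries (horizontal) and without C57BL/6 naive libraries 4 and 5 (vertical); the dashed line marks equal values. The 40 green miRNAs had an unadjusted p under 0.05 in both fits, 12 yellow ones only with 14 libraries and 18 purple ones only with 12, and miR-200a-3p and miR-200b-3p lie far below the line.

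miRNAs were then grouped by lists of cell types, clusters and families. By limma no member of any list passed in the interaction, while DESeq2 called miR-1188-5p of the Meg3 and Rian list and, without naive libraries 4 and 5, also miR-379-5p of the miR-379 to miR-410 list, and lists are described by counts and medians beside those of all 638 miRNAs (median −0.20, 383 negative, 255 positive, 8.15% at unadjusted p under 0.05). Below, p under 0.05 is unadjusted. The myelinating glia list (miR-338, miR-219 and miR-3065 arms) had negative interactions in 8 of 8 tested members, with a median of −0.91, and −0.72 with 8 of 8 negative without naive libraries 4 and 5. All 8 were negative under the 3 other scalings too. Their median change was 0.47 in C57BL/6 (0.31 without the 2 libraries) and −0.43 in CAST/Ei, and only miR-338-3p had a p under 0.05. miR-338 and miR-3065 lie on opposite strands of 1 locus, so they may not be separate. Whether the miR-219 arms are separate from each other was not tested. Some members were scarce. miR-219a-2-3p, named after its values were seen, was at 1.23, 3.45 and 31.8 CPM in naive CAST/Ei libraries 1 to 3, so 1 library weighed most there. All 11 on the list, tested or not, summed to 9616 to 38540 CPM in naive and 39169 to 48861 in injured C57BL/6 ganglia. In CAST/Ei the sum was 40112 to 45617 CPM in naive and 33121 to 34727 in injured ganglia. The naive C57BL/6 range was 19254 to 38540 over its libraries 1 to 3. miR-338-3p was at 6735 to 42996 CPM over the 14 libraries, so these sums rest largely on it.

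The 4 arms of miR-126, an endothelial miRNA, had interactions of −0.55 to −0.72, none at p under 0.05, with a median of −0.68 (−0.59 in 12 libraries). miR-126a and miR-126b also lie on opposite strands of 1 locus. The 19 neuronal miRNAs had a median of −0.54 (−0.27 in 12 libraries), with 3 at p under 0.05, all negative: miR-7a-1-3p, miR-135a-5p and miR-153-3p, the last named after its values were seen. The interaction of miR-153-3p was −1.54 (95% interval −3.07 to −0.01), and −0.89 in 12 libraries. Sensory neuron miRNAs had a median of −0.09 over 9 members, 5 negative and 4 positive and 0 at p under 0.05, and the sign of that median turned to 0.08 under another scaling.

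Of 20 tested miRNAs reported to increase after nerve injury, 17 had the same sign in both strains, and their median interaction was 0.05, or −0.02 in 12 libraries. The list was written with earlier results of these libraries known, so its direction is not independent evidence. Only miR-21a-3p had a p under 0.05. The median of the 12 leukocyte miRNAs was 0.42 with all libraries, 10 of them positive, and 0.05 with 7 positive in 12 libraries. The summed level of all 16 listed, tested or not, was 7017 to 11568 CPM in naive and 8201 to 10553 in injured C57BL/6 ganglia. In CAST/Ei it was 6128 to 8702 CPM in naive and 9106 to 9798 in injured ganglia, and there the groups did not overlap.

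Of the imprinted chromosome 12 domain, the miR-379 to miR-410 group had 42 negative and 22 positive interactions over 64 tested members, with a median of −0.34 (−0.27 in 12 libraries). At p under 0.05 stood 5 negative ones, both arms of miR-379, miR-376b-5p, miR-376c-5p (−1.78, or −0.95 in 12 libraries) and miR-496a-3p (−1.13, or −0.64), and 2 positive ones, miR-666-5p (0.95) and miR-668-3p (1.24). miR-376c-5p, miR-496a-3p, miR-666-5p and miR-668-3p were named after their values were seen. The median change of the group was 0.49 in C57BL/6 and 0.09 in CAST/Ei. The Rtl1-antisense group of 18 had a median of −0.42 and the Meg3 and Rian group of 10 one of 0.26 (0.14 in 12 libraries), with 2 at p under 0.05, miR-370-3p at 1.37 (95% interval 0.21 to 2.53) and miR-770-3p at 1.28 (95% interval 0.13 to 2.43), or 0.85 and 0.88 in 12 libraries.

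The Sfmbt2 repeat family, a set of near-identical miRNAs among which reads can be split, had 36 negative interactions of 47, a median of −0.48 (−0.37 in 12 libraries) and 1 member at p under 0.05 in each direction. Its median change was 0.47 in C57BL/6 and 0.04 in CAST/Ei. All 11 tested miR-30 arms had negative interactions, with a median of −0.23, close to that of all miRNAs, and −0.46 in 12 libraries, but under plain CPM 9 and without the 3 most abundant miRNAs 8 were negative. The cluster of miR-216 and miR-217 had 4 of 4 negative with a median of −0.75, of which 2 were negative under those 2 scalings. The 14 members of the miR-15 and miR-16 family had 11 negative and 3 positive interactions and the 8 Hox cluster miRNAs 6 and 2, with medians of −0.47 and −0.52.

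**Figure D5:**
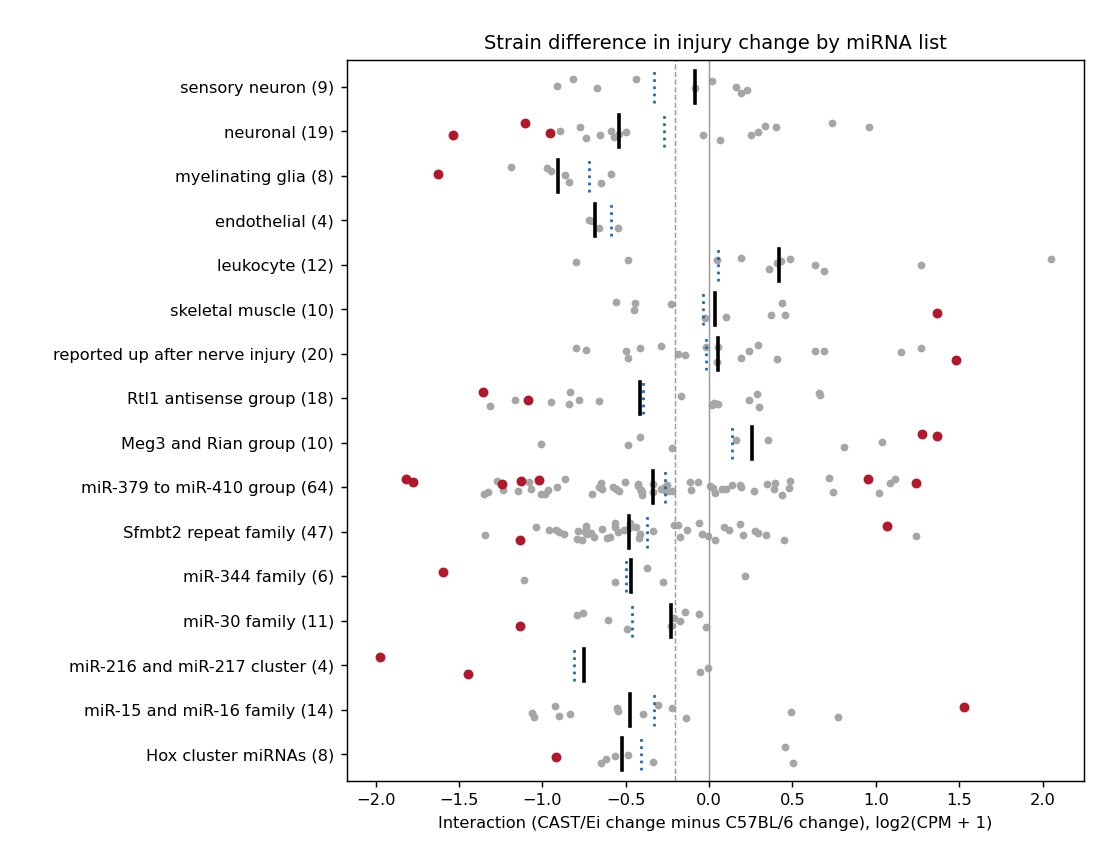
Interaction of each tested member (grey points, red at an unadjusted p under 0.05) of 16 miRNA lists on the log2(CPM + 1) scale, with the number tested in parentheses; black bars are list medians over 14 libraries, blue dotted bars those without C57BL/6 naive libraries 4 and 5, and the dashed line the median of all 638 miRNAs (−0.20). The myelinating glia and endothelial lists lie wholly left of 0, the leukocyte median moves from 0.42 to 0.05, and no point passed an adjusted p of 0.05 by limma.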

How the data were processed

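Mature miRNAs were measured by small RNA sequencing of dissociated dorsal root ganglia with an Ion Total RNA-Seq kit, per the labels' protocols. The reads were aligned with Bowtie2, per the submitters' processing notes; the build, the miRNA release and the use of strand in counting were not stated. The authors deposited 1 table of CPM per library, a signal that is scaled and does not sum to 1000000: the deposited values are whole reads divided by a library size scaled by the trimmed mean of M values, and every value came back as a whole read count within 1e-06. For C57BL/6 injured library 1 this is less certain, because of the value that 1 read has there. The replicates differed from each other by more than counting noise.

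The 638 miRNAs at 5 CPM or more in at least 3 libraries were fitted as log2(CPM + 1) with limma 3.58.1 (R 4.3.3), with a mean for each of 4 groups, an intensity trend in the variance, and Benjamini-Hochberg adjustment over 638 miRNAs at 0.05. For changes alike or opposite, the larger of the 2 strains' injury p-values was adjusted. edgeR 4.0.16 (quasi-likelihood) and DESeq2 1.42.0 were run on the recovered reads as alternatives, with other scalings, pseudocounts, filters and libraries left out. Where libraries were left out, the same 638 miRNAs were kept and the filter was not redone. The scripts were tested on simulated data. Individual miRNAs were named by a rule: the 10 lowest interaction p-values in each direction, those called alike or opposite or else the 10 lowest p-values, the most abundant and the 2 lowest p-values of each list, and those a count test called. The members, lists and tests were chosen with earlier results of these data known. List members were described by counts and medians, with no test of a list. Intervals of the interaction cover the spread between libraries, which the labels call biological replicates.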

Additional observations from a re-analysis of the deposited data

Results flagged for a closer look

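In the 5 naive C57BL/6 libraries, 32 miRNAs were checked for a library that stood apart by Dixon's ratio (critical value 0.710 for 5 values), and 6 had one. Chance gives about 1 in 20 only for normally distributed values, and the ratio was taken on untransformed CPM. Several of the 6 were also named for interactions that rest on these libraries. No excess over chance is therefore read from the count. In naive library 3, miR-216a-5p was 30.7 CPM (next 13.04), miR-26b-5p 5571 CPM (next 3182) and miR-344e-3p 1.77 CPM (next 0.0810). In naive library 5, miR-206-3p was 194 CPM (next 88.4) and miR-344d-3p 61.0 CPM (next 31.4). In naive library 4, miR-702-3p was 32.7 CPM (next 12.1).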

How the results depend on the processing

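The interaction gave 0 calls under every limma and edgeR setting run, and DESeq2 gave 8. DESeq2 also gave 83 injury calls in C57BL/6 and 17 in CAST/Ei. Without C57BL/6 naive libraries 4 and 5 there were 17 CAST/Ei injury calls, 9 changes alike and 158 differences bounded within 2-fold. Array weights gave 67, 32, 11 and 199 for C57BL/6 calls, CAST/Ei calls, changes alike and bounded differences. Changes alike were 3 with a pseudocount of 0.5, 3 with a filter at 20 CPM, 2 with no filter and 3 by edgeR. Bounded differences were 115 with a pseudocount of 5 and 150 with no filter. The count tests give no interval, so they have no bounded count.

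Among settings chosen after seeing the data, edgeR without C57BL/6 injured library 1 gave 6 C57BL/6 calls and 2 changes alike, and edgeR without naive libraries 4 and 5 gave 17 CAST/Ei calls. DESeq2 without naive libraries 4 and 5 gave 9 interaction calls, 53 and 41 injury calls in C57BL/6 and CAST/Ei, and 16 changes alike.

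With each library left out in turn, interaction calls and opposite changes were 0 each time. C57BL/6 calls were 6 to 70, the most without C57BL/6 naive library 3 and the fewest without C57BL/6 injured library 3. CAST/Ei calls were 3 to 10, changes alike 1 to 5, and bounded differences 11 to 66, the most without C57BL/6 naive library 4 or 5. The number of miRNAs at an unadjusted interaction p under 0.05 was 26 without C57BL/6 injured library 3 and 114 without C57BL/6 naive library 3.

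The groups share replicate numbers, but deviations from the group means of libraries with the same number had correlations of −0.225 to 0.555, and not every library correlated best with its own number. All 3 correlations were over 0.1 only between injured C57BL/6 and naive CAST/Ei libraries (0.108 to 0.555). These groups enter the interaction with the same sign, so a deviation that they share would add to its error. In the other pairs of groups at least 1 correlation was not over 0.1, so the numbers were not taken to pair the libraries. With the replicate number as a block, in which C57BL/6 naive libraries 4 and 5 drop out of the contrasts, there were 0 interaction calls, 37 C57BL/6 and 21 CAST/Ei injury calls, 9 changes alike and 184 bounded differences.

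Of the single miRNA values, 4157 kept their direction and call, 122 moved, 45 lost and 34 gained a call, and 4 turned in sign. All 4 were the interaction of miR-1188-5p: −0.0482 without naive libraries 4 and 5, −0.0482 with the replicate block, −0.0707 without C57BL/6 injured library 1 (up to 0.328 with other libraries left out) and −0.484 with a pseudocount of 5. The cause was not tested in any of these. Depth was 4007706 to 15642360 reads, so miRNAs at a few CPM rest on few reads.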
